A study of Homo sapiens with 33 samples.

Results

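The 31 genes described here make cholesterol and fatty acids or control that synthesis, and they were chosen by name from the 58302 genes of the RNA-seq table as genes driven by the sterol regulatory element binding proteins (SREBPs). All 31 reached 100 CP20M (counts per 20000000 reads) in at least 1 library, as did 17803 genes in all. They comprised 7 enzymes of the mevalonate pathway, 11 enzymes that turn its product into squalene and then cholesterol, 7 enzymes of fatty acid synthesis, elongation and desaturation, 5 regulators and 1 sterol transfer protein. The study treated established lines with palbociclib, an inhibitor of the cell cycle kinases CDK4 and CDK6, and asked how sensitive and resistant cells responded and what remained after the drug was withdrawn. H2052, H2452, H28 and MSTO-211H are malignant pleural mesothelioma (MPM) lines that respond to the drug, called sensitive here, whereas the MPM line MPP89, whose RB1 is mutated, and MeT-5A, mesothelial cells immortalized with SV40, resist it. For 9 or 10 days (9 in the resistant lines) cells grew in medium with serum and either palbociclib at 1 µM or its solvent, DMSO at 0.1%, and in 1 experiment of each sensitive line the drug was then removed for 48 h (washout). This gave 11 DMSO and 11 palbociclib libraries of sensitive lines in 11 paired experiments (2 of H2052 and 3 of each of the others), 4 washout libraries, and 3 resistant pairs, 2 from MPP89 and 1 from MeT-5A, with 1 untreated MeT-5A library.

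SREBPs are transcription factors held in the membrane of the endoplasmic reticulum. When membrane sterol is low, the escort protein SCAP carries them to the Golgi, where they are cut and released to the nucleus, while INSIG proteins retain SCAP when sterol is plentiful. SREBF2 encodes the form best known for cholesterol genes and SREBF1 the forms best known for fatty acid genes, and INSIG1 and both SREBP genes are themselves SREBP targets. Dividing cells need sterols and fatty acids for new membrane and can also take them up from serum.

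The promoters give a view of what these genes share besides their role. RefSeq promoter windows of GRCh38.p14, from 250 bases before to 50 bases after each start, were matched by symbol for 27 of the 31 genes. ACAT2, FDFT1, SQLE and FASN had no entry. Motifs were searched on both strands as exact letters. A gene counted as a match if any of its windows held one, and some genes, ACLY and IDI1 among them, had several windows. The number of windows per gene was not matched between these genes and the rest. The box CCAAT, bound by NF-Y, a frequent partner of SREBPs, was in the windows of 20 of 27 genes (74.1%), compared with 39.7% of the 27305 genes with a window. The E-box CACGTG was in 4 of 27 (14.8%, against 8.77% of all), and the sterol regulatory element TCACNCCAC in 1 (3.7%, against 1.39%), which was SREBF2. These are letter matches, given without a test, and many functional sterol elements differ from this spelling. Of the 7 genes with a window that were called lower with palbociclib in the sensitive lines, 6 held a CCAAT box, as did 14 of the 20 that were not. The windows below are shown because they belong to 5 of the genes that fell, to SREBF2 with its sterol element, and to NSDHL, which held several boxes but did not pass the test. They cover only bases before the start of the gene, read 5′ to 3′ on the gene's strand, with matches in capitals (ATTGG is CCAAT on the other strand). They lie at chr7:155297693-155297732 (INSIG1), chr1:162790635-162790674 (HSD17B7), chrX:48521602-48521798 (EBP), chr11:65111783-65111822 (TM7SF2), chr10:100346989-100347071 (SCD), chr22:41832957-41833023 (SREBF2) and chrX:152830820-152830966 (NSDHL), all on the plus strand.
INSIG1: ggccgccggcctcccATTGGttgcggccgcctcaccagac
HSD17B7: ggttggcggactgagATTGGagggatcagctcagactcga
EBP: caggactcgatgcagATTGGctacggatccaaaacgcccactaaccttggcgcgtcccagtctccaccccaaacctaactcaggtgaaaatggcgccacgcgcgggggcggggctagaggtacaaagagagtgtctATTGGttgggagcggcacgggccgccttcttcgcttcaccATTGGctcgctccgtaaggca
TM7SF2: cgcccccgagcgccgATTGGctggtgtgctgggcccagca
SCD: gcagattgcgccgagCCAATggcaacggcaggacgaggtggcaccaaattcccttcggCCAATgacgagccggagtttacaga
SREBF2: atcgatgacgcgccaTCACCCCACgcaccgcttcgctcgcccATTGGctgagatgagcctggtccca
NSDHL: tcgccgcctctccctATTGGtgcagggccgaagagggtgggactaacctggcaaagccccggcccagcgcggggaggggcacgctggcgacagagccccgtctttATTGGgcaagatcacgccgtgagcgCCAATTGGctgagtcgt

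In SREBF2 the sterol element and a CCAAT box lie close together. EBP carries 3 boxes, SCD 2, and INSIG1, HSD17B7 and TM7SF2 a single one in the stretch shown, while in NSDHL neighbouring matches on the strands share letters.

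In the sensitive lines, 9 of the 31 genes were lower with palbociclib past the threshold and none was higher. They were INSIG1 among the regulators, the desaturases FADS1, FADS2 and SCD, the mevalonate enzyme ACAT2, and the squalene and sterol enzymes FDFT1, HSD17B7, TM7SF2 and EBP. A gene was called when its fold change exceeded 1.5 in either direction with a Benjamini-Hochberg FDR under 0.05 over all genes tested, in a limma fit of log2(CP20M + 10) that blocked on the paired experiment. Of all genes tested over the 11 pairs, 9.37% were called lower and 5.58% higher. At the FDR alone, without the fold threshold, 24 of 31 passed in the lower and 1 in the higher direction, against 33.7% and 14.6% of all genes. These counts belong to the deposited scale and the main fit. Under the alternatives run, the limma adjusted p reached 0.42 for HMGCS1, 0.57 for SQLE and 0.73 for DHCR7. For INSIG1 and FADS1 it stayed at or below 0.0065 and 0.0076. In the main fit, estimates were below 0 for 27 of the 31 genes, with a median log2 fold change of -0.47. Over all genes the median was -0.11. Another scaling of the libraries (median of ratios) moved both medians up, to -0.27 and 0.06, and left the distance between them at -0.33, compared with -0.35 in the deposited scale. That scaling called 7 of the 31 genes lower and 0 higher, while over all genes the share of calls that were higher went from 37.3% to 65.7%. The median over the 31 genes was below 0 in each of the 11 pairs, from -0.73 in the second H2052 experiment to -0.10 in the third MSTO-211H experiment, where 18 of the 31 genes were below 0.

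**Figure D1:**
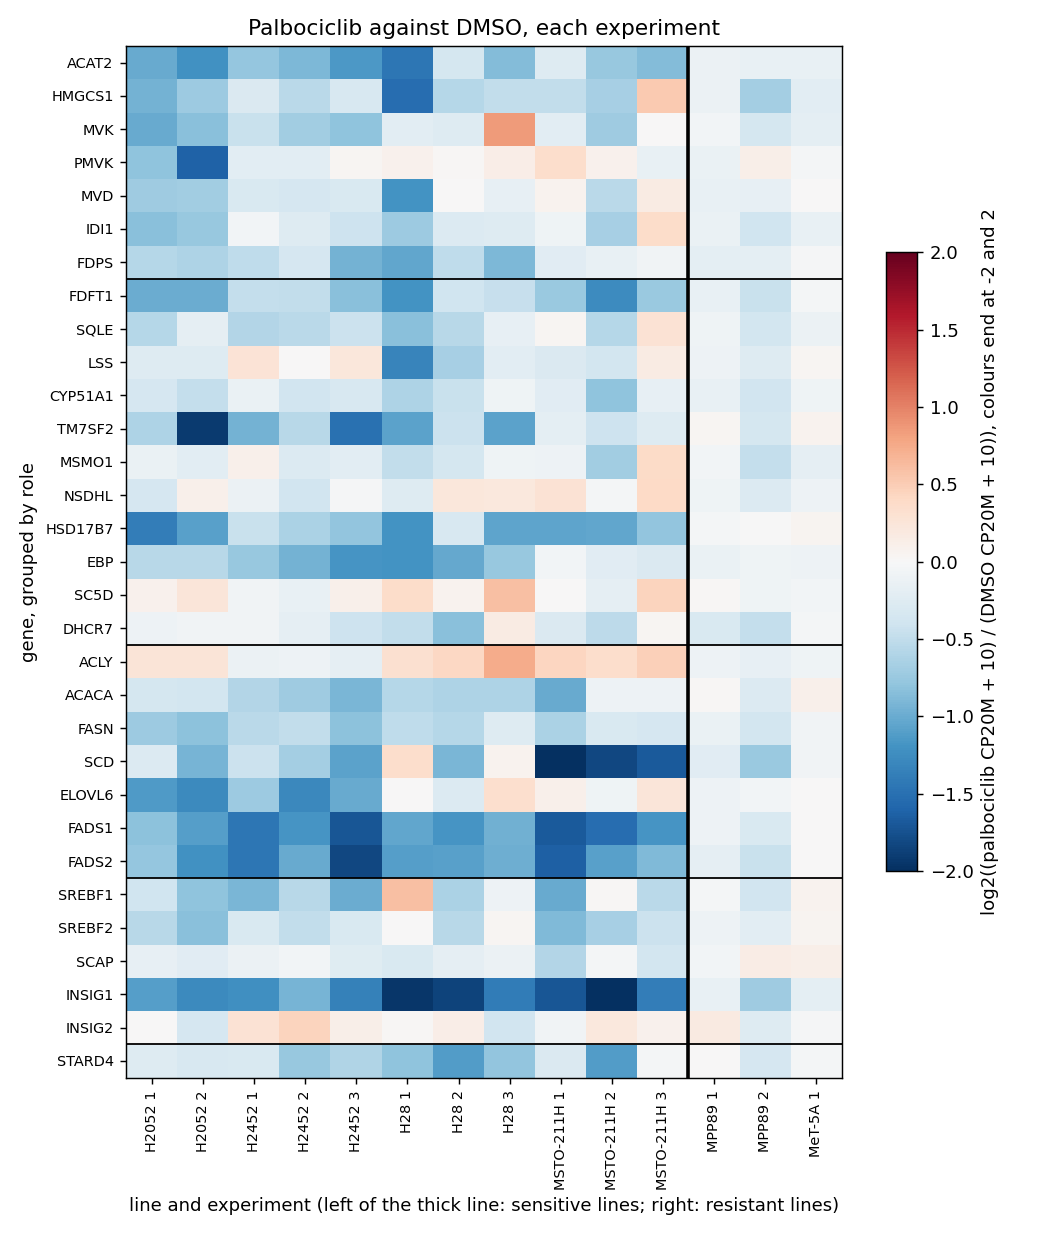
Heat map of the log2 ratio of palbociclib to DMSO (CP20M + 10) for the 31 genes (rows, grouped by role) in each of the 14 paired experiments (columns). INSIG1, FADS1 and FADS2 are blue in all 11 sensitive pairs, ACLY is mostly red there, and the 3 resistant pairs on the right are pale.

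Fitted line by line, 14 of the 31 genes were called lower in H2052 (13% of all genes tested there), 15 in H2452 (10.8%), and 7 each in H28 (7.34%) and MSTO-211H (7.94%), with 0 higher in each. Among all genes tested, the share called higher ran from 4.67% (H2052) to 6.04% (H2452). At an unadjusted p under 0.05, 0 of the 31 were higher in H2052 and 1 in each of the other lines. Of the 17803 genes tested, between 2078 (H2052) and 3111 (H28) were higher at that p. INSIG1, FADS1 and FADS2 were called in all 4 lines. The single-line calls rest on few pairs: leaving out any 1 pair left 0 called genes in H28 and in MSTO-211H, and 0 in H2452 without replicate 1 or replicate 3 and 4 without replicate 2. H2052 had only 2 pairs, and its count went to 0 without the filter on low genes or without the variance trend. In bulk libraries like these, fewer cells with a transcript and less transcript per cell cannot be told apart. The study calls the experiments of each line independent. The labels number the experiments but do not say how the cultures were separated, so the p-values measure the spread between these samples.

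The largest fall was that of INSIG1 (chromosome 7, 155297776 to 155310235, plus strand), which encodes the protein that retains SCAP and the SREBPs in the endoplasmic reticulum. INSIG1 was at 1896 and 2816 CP20M with DMSO against 881 and 1164 with palbociclib in H2052, and 1844, 1614 and 2049 CP20M with DMSO against 784, 842 and 800 with palbociclib in H2452. The level was 2266, 943 and 1968 CP20M with DMSO against 581, 254 and 740 with palbociclib in H28, and 3637, 2118 and 2116 CP20M with DMSO against 1100, 418 and 805 with palbociclib in MSTO-211H. Every DMSO library lay above every palbociclib library of its own line, in all 4 lines. Over the 11 pairs INSIG1 was 2.82-fold lower, a log2 fold change of -1.50 ± 0.11 SE, adjusted p = 9.8e-07, and it fell in 11 of 11 pairs. INSIG2, which encodes a related retention protein, did not pass the test. INSIG2 was at 321 and 454 CP20M with DMSO against 322 and 359 with palbociclib in H2052, and 832, 1079 and 1003 CP20M with DMSO against 1021, 1479 and 1083 with palbociclib in H2452. Its level was 673, 610 and 882 CP20M with DMSO against 685, 667 and 674 with palbociclib in H28, and 470, 392 and 408 CP20M with DMSO against 448, 457 and 432 with palbociclib in MSTO-211H. The groups of INSIG2 overlapped in every line, the log2 fold change was 0.05 ± 0.08 SE, adjusted p = 0.63, with a 95% interval of -0.12 to 0.21.

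Neither gene of the SREBPs themselves reached 1.5-fold over the sensitive lines. SREBF2 stood at 6242 and 7886 CP20M with DMSO against 4231 and 4399 with palbociclib in H2052, and 4909, 4559 and 5244 CP20M with DMSO against 3954, 3243 and 4262 with palbociclib in H2452. The gene was at 7853, 6370 and 7143 CP20M with DMSO against 7932, 4312 and 7353 with palbociclib in H28, and 3552, 3198 and 2921 CP20M with DMSO against 1916, 2016 and 2157 with palbociclib in MSTO-211H. The log2 fold change of SREBF2 was -0.45 ± 0.09 SE, adjusted p = 0.00084, with 9 of 11 pairs lower, and its libraries did not overlap in H2052, H2452 and MSTO-211H. It was called in H2052 (-0.70) and MSTO-211H (-0.66). SREBF1 ranged more widely, at 2735 and 5282 CP20M with DMSO against 2072 and 3008 with palbociclib in H2052, and 2335, 2447 and 3135 CP20M with DMSO against 1236, 1671 and 1576 with palbociclib in H2452. Levels were 2907, 3600 and 4353 CP20M with DMSO against 4424, 2306 and 4074 with palbociclib in H28, and 5655, 3476 and 4996 CP20M with DMSO against 2799, 3516 and 3435 with palbociclib in MSTO-211H. The log2 fold change of SREBF1 was -0.48 ± 0.13 SE, adjusted p = 0.0087, with 9 of 11 pairs lower. It was higher with the drug in H28 replicate 1 and level in MSTO-211H replicate 2, and its groups separated only in H2452. The escort protein's gene showed less spread. SCAP was at 1834 and 1952 CP20M with DMSO against 1644 and 1674 with palbociclib in H2052, and 1186, 1168 and 1144 CP20M with DMSO against 1090, 1126 and 964 with palbociclib in H2452. It stood at 2989, 2599 and 2446 CP20M with DMSO against 2406, 2292 and 2245 with palbociclib in H28, and 2301, 1961 and 2277 CP20M with DMSO against 1528, 1916 and 1760 with palbociclib in MSTO-211H. Its difference was small but in the same direction in 11 of 11 pairs (-0.22 ± 0.06 SE, adjusted p = 0.0055), and no DMSO library overlapped a palbociclib library of its line. This holds in the deposited scale. Under the 26 alternatives run, the log2 fold change of SCAP ranged from -0.25 to -0.023, with limma adjusted p up to 0.76. STARD4, which carries cholesterol between membranes, had a log2 fold change of -0.58 ± 0.10 SE, adjusted p = 0.00047, and was lower in every pair, just inside the 1.5-fold limit.

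Among the 7 fatty acid enzymes, the desaturases fell furthest. FADS1 (chromosome 11, 61799627 to 61829318, minus strand) and FADS2 (61792980 to 61867354, plus strand) encode the delta-5 and delta-6 desaturases that make long polyunsaturated fatty acids from dietary ones. FADS1 read 7159 and 8620 CP20M with DMSO against 4069 and 4009 with palbociclib in H2052, and 5607, 5461 and 7478 CP20M with DMSO against 2045, 2416 and 2270 with palbociclib in H2452. Its values were 3518, 2475 and 3471 CP20M with DMSO against 1708, 1092 and 1775 with palbociclib in H28, and 2895, 2095 and 1856 CP20M with DMSO against 900, 726 and 814 with palbociclib in MSTO-211H. FADS1 was 2.39-fold lower (-1.25 ± 0.08 SE, adjusted p = 4.1e-07). FADS2 read 5801 and 8826 CP20M with DMSO against 3396 and 3805 with palbociclib in H2052, and 6066, 6762 and 8534 CP20M with DMSO against 2222, 3351 and 2407 with palbociclib in H2452. The gene stood at 1265, 654 and 1162 CP20M with DMSO against 585, 303 and 583 with palbociclib in H28, and 2816, 1142 and 1302 CP20M with DMSO against 897, 535 and 704 with palbociclib in MSTO-211H. FADS2 was 2.27-fold lower (-1.18 ± 0.09 SE, adjusted p = 1.1e-06). Both were lower in 11 of 11 pairs, and in each line all DMSO libraries lay above all palbociclib libraries. These neighbours overlap on opposite strands over 490 exon bases, 4.79% of the exon bases of FADS1 and 4.64% of those of FADS2, and whether reads were counted by strand is not given in the sources used here.

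SCD, the delta-9 desaturase that makes monounsaturated fatty acids, differed between lines. SCD was at 15455 and 28831 CP20M with DMSO against 12743 and 15056 with palbociclib in H2052, and 7906, 9518 and 14006 CP20M with DMSO against 5852, 5951 and 6650 with palbociclib in H2452. It stood at 14198, 14240 and 13486 CP20M with DMSO against 18058, 7544 and 14173 with palbociclib in H28, and 27768, 18400 and 14103 CP20M with DMSO against 5137, 5199 and 4400 with palbociclib in MSTO-211H. All MSTO-211H libraries with palbociclib were far below those with DMSO, whereas in H28 1 of 3 pairs was clearly lower and the groups overlapped. Over all pairs SCD was 1.86-fold lower (-0.89 ± 0.22 SE, adjusted p = 0.0045) and lower in 9 of 11. Without the MSTO-211H line it was not called, where its log2 fold change was -0.49, nor with line means as units (-0.87), nor in the 10-day pairs alone (-0.90). FASN, the multienzyme that builds palmitate, was at 9529 to 38977 CP20M (median 24357) in the 11 DMSO libraries and 6800 to 24998 CP20M (median 19043) in the 11 palbociclib libraries. It was lower in 11 of 11 pairs (-0.55 ± 0.07 SE, adjusted p = 3.8e-05), as was ACACA, which makes the malonyl-CoA that FASN uses (-0.54 ± 0.08 SE, adjusted p = 0.00019). Neither reached 1.5-fold. ELOVL6, which elongates palmitate, had a log2 fold change of -0.47 ± 0.17 SE, adjusted p = 0.035, with -1.21 in H2052 and -1.01 in H2452 but 0.02 in H28 and 0.08 in MSTO-211H. ACLY, which makes the cytosolic acetyl-CoA at the head of both pathways, was the single member higher at the FDR alone, with a log2 fold change of 0.26 ± 0.08 SE, adjusted p = 0.020 and 8 of 11 pairs higher.

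**Figure D2:**
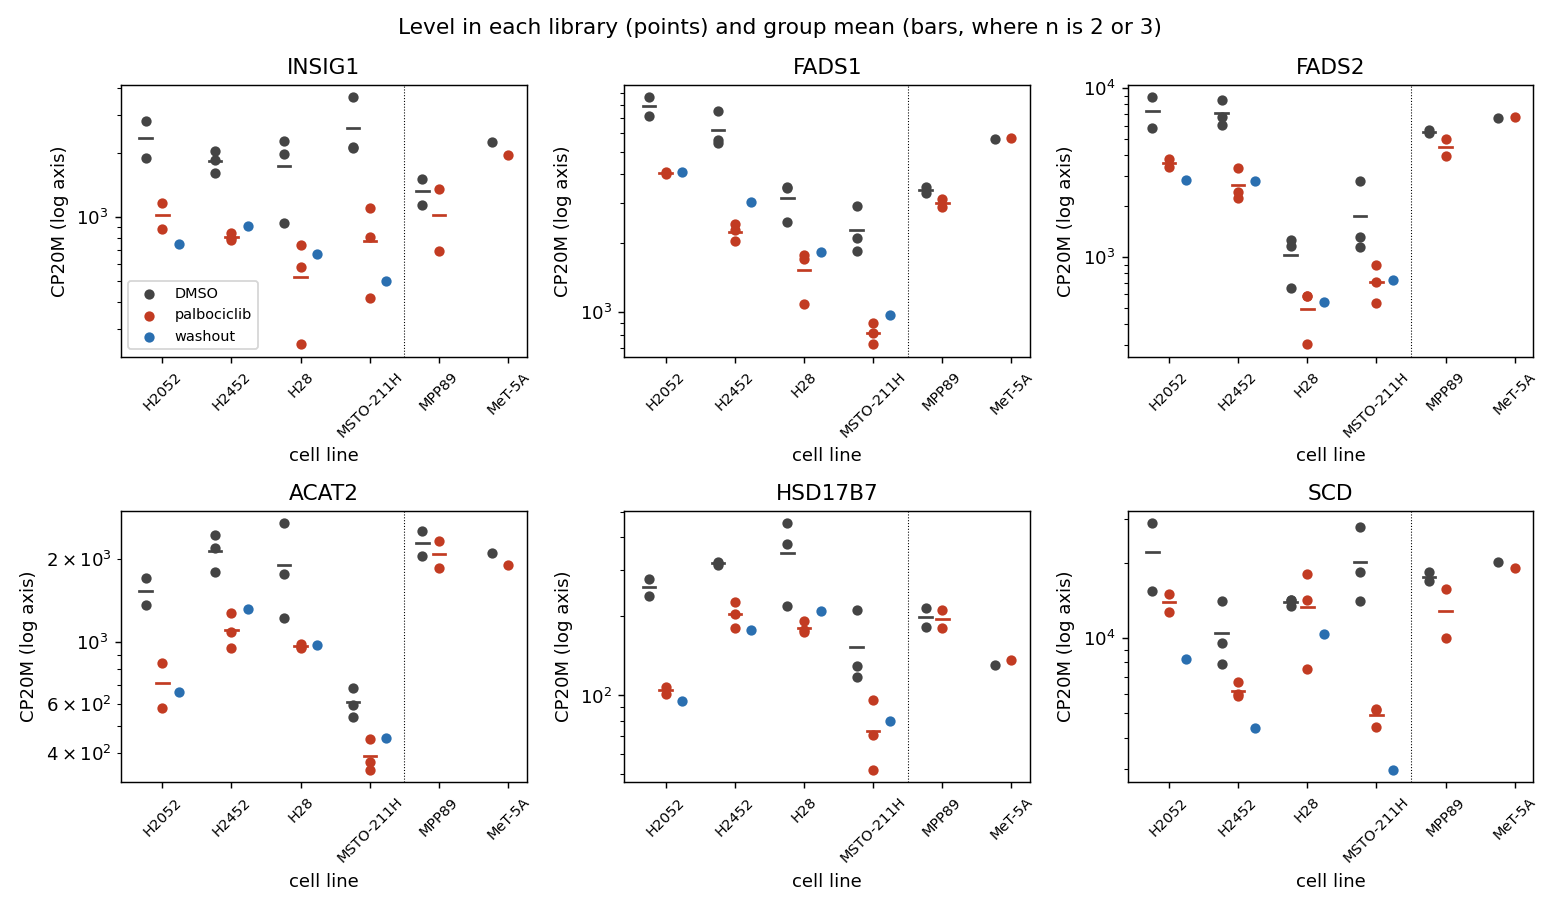
CP20M (log axis) of INSIG1, FADS1, FADS2, ACAT2, HSD17B7 and SCD in every DMSO, palbociclib and washout library of the 6 lines, with bars at the group mean where there are 2 or 3 libraries. The palbociclib points of INSIG1, FADS1, FADS2, ACAT2 and HSD17B7 lie below all DMSO points of the same line in the 4 sensitive lines, and so do the washout points of these 5 genes.

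Of the 7 mevalonate enzymes, 1 was called. ACAT2 (chromosome 6, 159762045 to 159779112), which joins acetyl-CoA units in the cytosol at the start of the pathway, was 1.83-fold lower (-0.87 ± 0.10 SE, adjusted p = 1.7e-05). ACAT2 was at 1707 and 1356 CP20M with DMSO against 842 and 580 with palbociclib in H2052, and 2184, 1785 and 2435 CP20M with DMSO against 1274, 949 and 1090 with palbociclib in H2452. Levels stood at 2689, 1225 and 1759 CP20M with DMSO against 985, 960 and 956 with palbociclib in H28, and 539, 595 and 686 CP20M with DMSO against 448, 346 and 371 with palbociclib in MSTO-211H. The gene was lower in 11 of 11 pairs with no overlap in any line. Its exons overlap those of TCP1 on the opposite strand over 454 bases, 17.2% of its exon bases, so without strand some reads could belong to either. The other mevalonate enzymes lay below 0 without reaching 1.5-fold. HMGCS1, which makes HMG-CoA, had a log2 fold change of -0.55 ± 0.13 SE, adjusted p = 0.0040 and FDPS, which makes farnesyl diphosphate, -0.53 ± 0.09 SE, adjusted p = 0.00041. FDPS was lower in 11 of 11 pairs and HMGCS1 in 10. MVK and MVD, which phosphorylate mevalonate and decarboxylate its diphosphate, had -0.39 and -0.36 (adjusted p = 0.035 and 0.015), and IDI1, the isopentenyl diphosphate isomerase, -0.36 (adjusted p = 0.010). PMVK, the second kinase of the pathway, did not pass (-0.21 ± 0.15 SE, adjusted p = 0.28), and its sign turned to 0.02 without the H2052 line.

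Among the 11 enzymes from farnesyl diphosphate to cholesterol, 4 were called, all lower. FDFT1, which makes squalene, was 1.72-fold lower (-0.78 ± 0.09 SE, adjusted p = 1.5e-05). FDFT1 was at 3421 and 3340 CP20M with DMSO against 1720 and 1670 with palbociclib in H2052, and 1750, 1471 and 2004 CP20M with DMSO against 1253, 1047 and 1113 with palbociclib in H2452. In the other lines it was at 3571, 1338 and 1865 CP20M with DMSO against 1562, 1009 and 1356 with palbociclib in H28, and 3804, 3465 and 3345 CP20M with DMSO against 2281, 1442 and 1996 with palbociclib in MSTO-211H. It was lower in 11 of 11 pairs, but in H28 the lowest DMSO library lay below the highest palbociclib library. With median-of-ratios scaling it was at -0.58, just short of the call. HSD17B7, which reduces a 3-keto group during demethylation at carbon 4 of the sterol, was 1.85-fold lower (-0.89 ± 0.10 SE, adjusted p = 2e-05). HSD17B7 was at 278 and 240 CP20M with DMSO against 101 and 108 with palbociclib in H2052, and 314, 323 and 319 CP20M with DMSO against 227, 205 and 180 with palbociclib in H2452. Values were 454, 219 and 378 CP20M with DMSO against 192, 174 and 177 with palbociclib in H28, and 211, 118 and 130 CP20M with DMSO against 96, 52 and 71 with palbociclib in MSTO-211H. No DMSO library overlapped a palbociclib library of its line. HSD17B7 has a near-identical pseudogene copy, so its counts are uncertain to the extent that reads are shared. TM7SF2, a sterol C14 reductase, was 1.76-fold lower (-0.81 ± 0.15 SE, adjusted p = 0.00075). TM7SF2 was at 329 and 545 CP20M with DMSO against 210 and 137 with palbociclib in H2052, and 181, 261 and 219 CP20M with DMSO against 89, 175 and 71 with palbociclib in H2452. The remaining libraries were at 82, 92 and 120 CP20M with DMSO against 34, 66 and 52 with palbociclib in H28, and 245, 222 and 256 CP20M with DMSO against 213, 164 and 212 with palbociclib in MSTO-211H. Each line separated, in H2452 (181 against 175) and MSTO-211H (222 against 213) by a narrow margin.

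EBP, the sterol isomerase that moves the ring double bond, was 1.61-fold lower (-0.69 ± 0.11 SE, adjusted p = 0.00024). EBP stood at 641 and 449 CP20M with DMSO against 433 and 304 with palbociclib in H2052, and 713, 604 and 775 CP20M with DMSO against 418, 308 and 336 with palbociclib in H2452. Its levels were 1181, 609 and 834 CP20M with DMSO against 509, 295 and 491 with palbociclib in H28, and 484, 239 and 399 CP20M with DMSO against 464, 202 and 324 with palbociclib in MSTO-211H. The MSTO-211H groups overlapped, the others did not. EBP fell short of 1.5-fold without the H2452 line, without the H28 line and under both other scalings, where its log2 fold change was between -0.58 and -0.49. By the annotation of GENCODE 44, EBP shares 36.4% of its exon bases with another protein-coding gene model on the same strand. CYP51A1 shares 68.2% with one. Reads were counted with Ensembl release 90, and whether that release holds these models was not checked, so an effect on the counts is not known. The other 7 enzymes of this segment did not reach 1.5-fold. SQLE, the squalene epoxidase, had a log2 fold change of -0.37 ± 0.09 SE, adjusted p = 0.0049. CYP51A1, the lanosterol demethylase, had -0.36 ± 0.07 SE, adjusted p = 0.00070, lower in 11 of 11 pairs, and DHCR7, the final reductase of one branch, -0.25 ± 0.08 SE, adjusted p = 0.023. LSS, which closes the sterol rings, had -0.24 (adjusted p = 0.12), MSMO1, a methyl sterol oxidase, -0.19 (0.073), NSDHL, a decarboxylating dehydrogenase, 0.01 (0.95) and SC5D, the C5 desaturase, 0.14 (0.15). For NSDHL the 95% interval was -0.17 to 0.18. By GENCODE 44, the exons of 15 of the 31 genes overlap a gene on the opposite strand, of which 6 a protein-coding one. Where the release used for counting holds both genes, such reads cannot be told apart without strand. HMGCS1 has the widest such overlap, 37.7% of its exon bases with an antisense lncRNA. Treated for 9 days (7 pairs) or 10 days (4 pairs), the counts called lower were 11 and 9 and the medians over the 31 genes -0.49 and -0.40.

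**Figure D3:**
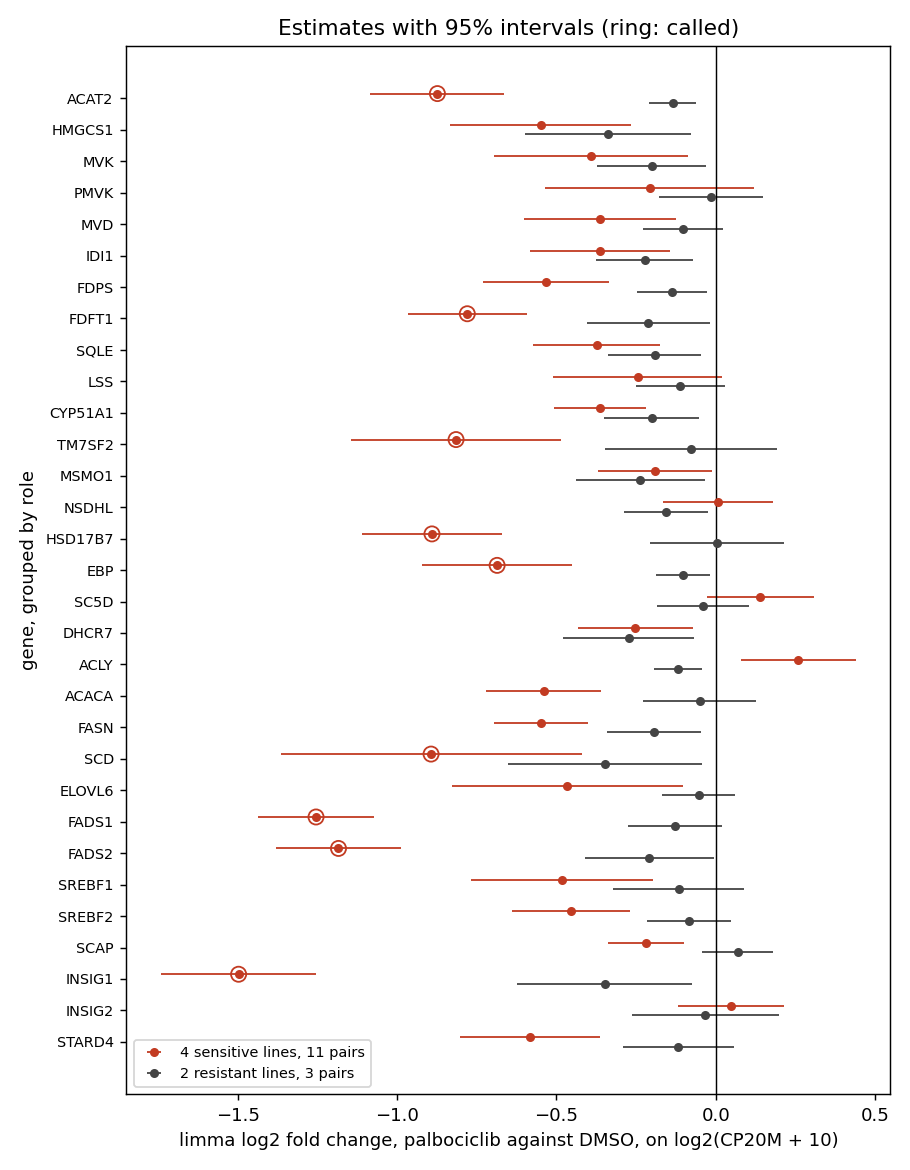
Log2 fold change of each gene with palbociclib in the 4 sensitive lines (red, 11 pairs) and the 2 resistant lines (grey, 3 pairs), as limma estimates with 95% intervals and a ring around called genes. The 9 ringed genes are all red and below 0, and most grey estimates lie a little below 0.

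In the resistant lines no gene of the group was called, nor was any of the 17803 genes tested by limma (0% lower). At an unadjusted p under 0.05, however, 17 of the 31 were lower and 0 higher, where 2.45% of all genes were lower at that p, and 29 of the 31 estimates were below 0. The median log2 fold change of the group was -0.13, compared with 0.01 over all genes. By pair, the median was -0.11 and -0.30 in MPP89 and -0.04 in MeT-5A, and 26, 29 and 20 of the 31 genes were below 0. The adjusted p-values of the 31 genes were 0.69 or more, and the count of calls stayed at 0 under every alternative run. INSIG1 in MPP89 was at 1500 and 1145 with DMSO and 1355 and 696 with palbociclib, and in MeT-5A at 2240 and 1962. Its log2 fold change was -0.35 (95% interval -0.62 to -0.07, adjusted p = 0.69). FADS1 in MPP89 was at 3313 and 3520 with DMSO and 3097 and 2862 with palbociclib, and in MeT-5A at 5698 and 5736, a difference of -0.13 (-0.28 to 0.02). The MPP89 replicate 2 pair had the larger difference in both genes.

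The difference between the classes was tested directly, as the palbociclib effect in sensitive lines minus that in resistant lines. At an FDR under 0.05, 5 of the 31 genes had a more negative effect in the sensitive lines and 0 a less negative one. Of all genes tested, 7.81% had a more negative effect and 1.56% a less negative one. At an unadjusted p under 0.05, 1 of the 31 had a less negative effect, as did 1063 of the 17803 genes tested. The 5 were INSIG1 (-1.15 ± 0.24 SE, adjusted p = 0.0092), FADS1 (-1.13 ± 0.17 SE, adjusted p = 0.0018), FADS2 (-0.98 ± 0.19 SE, adjusted p = 0.0074), HSD17B7 (-0.89 ± 0.20 SE, adjusted p = 0.014) and ACAT2 (-0.74 ± 0.19 SE, adjusted p = 0.028). FADS2 in MPP89 was at 5665 and 5398 with DMSO and 4976 and 3958 with palbociclib, and in MeT-5A at 6665 and 6712. HSD17B7 in MPP89 was at 216 and 182 with DMSO and 211 and 180 with palbociclib, and in MeT-5A at 131 and 137. ACAT2 in MPP89 was at 2511 and 2046 with DMSO and 2321 and 1847 with palbociclib, and in MeT-5A at 2103 and 1901. In MeT-5A the DMSO and palbociclib levels of FADS1, FADS2 and HSD17B7 were nearly equal. With 3 resistant pairs, each weighs heavily: the count was 1 without MPP89 replicate 1, 3 without MPP89 replicate 2 and 1 without MeT-5A, and FADS1 was the one called under each of the 22 alternatives run. Of the 11 squalene and sterol enzymes, 4 had a more negative effect at an unadjusted p under 0.05, HSD17B7 and, without passing the FDR, FDFT1 (-0.57), EBP (-0.58) and TM7SF2 (-0.74). Of all 17803 genes tested, 3697 had a more negative effect at that p. For DHCR7 the 95% interval of the difference was -0.35 to 0.39 and for MSMO1 -0.32 to 0.41. The regulators SREBF2, SREBF1 and SCAP had differences of -0.37, -0.37 and -0.29 (adjusted p = 0.19, 0.41 and 0.11). SREBF2 in MPP89 was at 5463 and 4627 with DMSO and 5082 and 4007 with palbociclib, and in MeT-5A at 3756 and 3922. SREBF1 in MPP89 was at 3713 and 3353 with DMSO and 3608 and 2582 with palbociclib, and in MeT-5A at 10160 and 10645. SCAP in these libraries was between 1831 and 3169, and INSIG2 between 284 and 629.

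The 4 sensitive lines did not respond alike for every gene. An F test of differences among their palbociclib effects passed an FDR of 0.05 for 6 of the 31 genes, where 37.1% of all genes passed. The log2 fold change of ELOVL6 was -1.21 in H2052, -1.01 in H2452, 0.08 in MSTO-211H and 0.02 in H28 (adjusted p = 0.0011). PMVK had -1.21 in H2052, -0.12 in H2452, 0.10 in MSTO-211H and 0.08 in H28 (adjusted p = 0.0065). SCD had another order, with -0.61 in H2052, -0.73 in H2452, -1.98 in MSTO-211H and -0.17 in H28 (adjusted p = 0.0077). For EBP the values were -0.55 in H2052, -0.96 in H2452, -0.19 in MSTO-211H and -0.99 in H28 (adjusted p = 0.0080), and for FDPS -0.59 in H2052, -0.60 in H2452, -0.15 in MSTO-211H and -0.81 in H28 (adjusted p = 0.044). ACLY was higher with the drug in H2052 (0.26), H28 (0.49) and MSTO-211H (0.42) and on the other side of 0 in H2452 (-0.13, adjusted p = 0.011). MSTO-211H thus combined the deepest fall of SCD with the smallest changes of EBP and FDPS. The F test gave adjusted p = 0.068 for INSIG1, 0.069 for FADS1 and 0.40 for FADS2.

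At 48 h after palbociclib was removed, none of the 31 genes was called higher, while 7 of 8 proliferation markers were. Of the 31 genes, 0 were called in either direction by limma in washout against palbociclib, where 1.4% of all genes tested were called higher and 0% lower. The estimates of 23 of the 31 genes lay below those with palbociclib, with a median log2 difference of -0.18, compared with 0.09 over all genes. At an unadjusted p under 0.05, 5 were lower after washout and 0 higher, where 1.15% of all genes were lower. These were DHCR7 (-0.41, adjusted p = 0.081), MSMO1 (-0.50, 0.14), CYP51A1 (-0.33, 0.14), LSS (-0.36, 0.19) and SCD (-0.62, 0.35). The 8 proliferation markers had a median of 2.41. In the experiments with a washout, the DMSO, palbociclib and washout levels of MKI67 were 4725, 806 and 6920 CP20M in H2052, 7680, 177 and 8328 CP20M in H2452, 10717, 1816 and 4824 CP20M in H28 and 5593, 777 and 3093 CP20M in MSTO-211H.

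INSIG1 in the same order was at 2816, 1164 and 751 CP20M in H2052, 2049, 800 and 909 CP20M in H2452, 1968, 740 and 671 CP20M in H28 and 2116, 805 and 500 CP20M in MSTO-211H. After washout it was above the palbociclib level in H2452 only, and in every line it was below the DMSO level. The log2 difference of washout from palbociclib was -0.31 (95% interval -0.65 to 0.02). SCD was at 28831, 15056 and 8250 CP20M in H2052, 14006, 6650 and 4370 CP20M in H2452, 13486, 14173 and 10430 CP20M in H28 and 14103, 4400 and 2970 CP20M in MSTO-211H, and the washout library was the lowest of the 3 in every line. FADS1 was at 8620, 4009 and 4079 CP20M in H2052, 7478, 2270 and 3031 CP20M in H2452, 3471, 1775 and 1828 CP20M in H28 and 1856, 814 and 973 CP20M in MSTO-211H. It stood slightly above palbociclib in each line, with a difference of 0.18 (-0.07 to 0.44). FADS2 was at 8826, 3805 and 2871 CP20M in H2052, 8534, 2407 and 2801 CP20M in H2452, 1162, 583 and 542 CP20M in H28 and 1302, 704 and 733 CP20M in MSTO-211H, a difference of -0.06 (-0.42 to 0.30). ACAT2 had 0.19 (-0.02 to 0.40) and HSD17B7 0.05 (-0.25 to 0.35). SREBF2 was at 7886, 4399 and 3845 CP20M in H2052, 5244, 4262 and 4096 CP20M in H2452, 7143, 7353 and 6399 CP20M in H28 and 2921, 2157 and 1618 CP20M in MSTO-211H, below palbociclib in 4 of 4 lines, and the regulators SREBF1, SCAP and INSIG2 had differences of -0.22, -0.08 and 0.10. With 1 washout library per line, these rest on 4 experiments. No DMSO library is labelled as kept for the further 48 h, so that time cannot be told apart from removal of the drug.

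Against DMSO, the washout libraries had 14 of the 31 genes called lower and 0 higher, where 2.95% of all genes tested were called lower and 2.81% higher. The median log2 difference was -0.58, compared with -0.05 over all genes. They were 5 of the 7 fatty acid enzymes, SCD (-1.52 ± 0.26 SE, adjusted p = 0.010), FADS2 (-1.28), FADS1 (-1.06), FASN (-0.79) and ACACA (-0.68). From the mevalonate enzymes came ACAT2 (-0.84) and FDPS (-0.64), and from the sterol enzymes TM7SF2 (-1.01), HSD17B7 (-0.88), FDFT1 (-0.76) and CYP51A1 (-0.59). The regulators were INSIG1 (-1.66 ± 0.15 SE, adjusted p = 0.0035), SREBF1 (-0.83) and SREBF2 (-0.60). Of the 8 proliferation markers 0 were called against DMSO by limma, with 2 lower at an unadjusted p under 0.05 and a median of -0.50. At that p, 24 of the 31 genes were lower and 0 higher, against 3170 lower and 2095 higher of the 17803 genes tested. This comparison shares its DMSO libraries with that of palbociclib. The block here was the experiment, 1 per line, and without it 0 genes were called, while leaving out H2052 left 4 and leaving out MSTO-211H left 9.

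**Figure D4:**
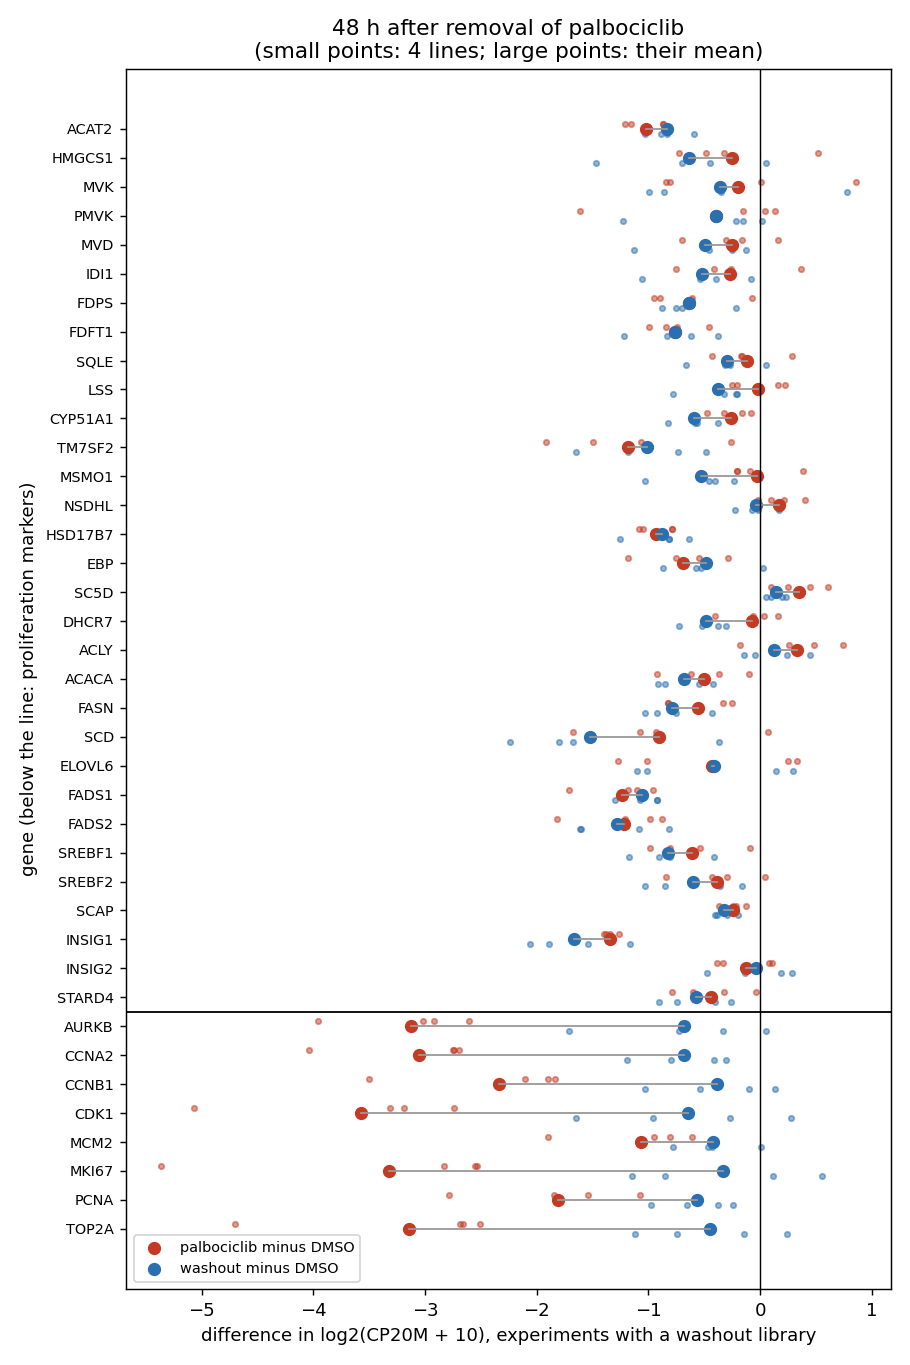
Difference from DMSO in log2(CP20M + 10) with palbociclib (red) and after 48 h of washout (blue) in the 4 experiments with a washout library, as small points for each line and large points for their mean, with 8 proliferation markers below the line. The mean of every marker lies nearer 0 after washout, while for 23 of the 31 genes, SCD and INSIG1 among them, the washout mean lies left of the palbociclib mean.

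Control levels of these genes differed among lines as most genes did: an F test over the DMSO libraries of the 5 lines with at least 2 passed for 28 of the 31 genes, against 94.3% of all genes tested. INSIG1, SREBF1 and MSMO1 did not pass. FADS2 was at 7314 ± 2139 CP20M (SD, n = 2) in H2052, 7121 ± 1272 (n = 3) in H2452 and 5532 ± 189 (n = 2) in MPP89, and lower at 1753 ± 924 in MSTO-211H and 1027 ± 327 in H28 (n = 3 each). The highest neighbours, H2052 and H2452, differed by less than their SD, and the lowest, MSTO-211H and H28, by less than the SD of MSTO-211H. SQLE stood out in H2052 at 6989 ± 578, against 2152 ± 423 in MPP89, 1603 ± 474 in H28, 1302 ± 251 in MSTO-211H and 950 ± 60.2 in H2452. HMGCS1 was also highest in H2052, at 8220 ± 251, with MPP89 next at 4920 ± 636. ACAT2 was lowest in MSTO-211H at 607 ± 74.2, followed by H2052 at 1532 ± 248, H28 at 1891 ± 741, H2452 at 2135 ± 328 and MPP89 at 2278 ± 329, and from H2052 on each neighbour differed from the next by less than the larger SD. ELOVL6 was at 376 ± 124 in H28 and 323 in the MeT-5A library, against 1073 ± 195 in MSTO-211H, 1136 ± 67.9 in MPP89, 1331 ± 129 in H2452 and 1408 ± 47.4 in H2052. The single MeT-5A DMSO library had 10160 CP20M of SREBF1, above the 2335 to 5655 of the 11 sensitive DMSO libraries.

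Other genes of lipid metabolism were listed by pathway, and their calls over the sensitive lines stand beside 9.37% lower and 5.58% higher of all genes tested. Of 10 genes that process or sense sterols alongside SCAP, 1 was called, TMEM97, itself a known SREBP target (log2 fold change -0.83 ± 0.15 SE, adjusted p = 0.00066). The median of this list was 0.05. Of 19 tested genes for other steps of sterol and isoprenoid synthesis, 3 were called lower and 0 higher: LBR, a lamin receptor that is also a sterol C14 reductase (-1.38 ± 0.12 SE, adjusted p = 2.4e-06), COQ2 of ubiquinone synthesis (-1.03 ± 0.09 SE, adjusted p = 3.4e-06) and RABGGTB, a geranylgeranyl transferase subunit (-0.73 ± 0.12 SE, adjusted p = 0.00030). The median of this list was -0.12. Of 17 tested genes of sterol uptake, efflux and storage, 3 were called higher and 0 lower: LIPA, the lysosomal lipase that frees cholesterol (1.27 ± 0.19 SE, adjusted p = 0.00015), LRP1, a lipoprotein receptor (1.27 ± 0.15 SE, adjusted p = 2.8e-05), and ABCA1, the cholesterol exporter (1.01 ± 0.21 SE, adjusted p = 0.0016), with a list median of 0.24. Of 28 tested genes in other steps of fatty acid and glycerolipid synthesis, 3 were lower, the elongase ELOVL2 (-1.36 ± 0.19 SE, adjusted p = 9.1e-05), MID1IP1, which promotes acetyl-CoA carboxylase activity (-0.79), and TECR, a reductase of elongation (-0.63), while SCD5, a second delta-9 desaturase, was higher (0.74 ± 0.17 SE, adjusted p = 0.0026). Of 19 genes of fatty acid oxidation, those named here as called lower were HADH (-0.68) and CPT1B (-0.62). In the resistant lines 0 genes of these lists were called, and in washout against palbociclib 0. In washout against DMSO, where 2.95% of all genes were called lower and 2.81% higher, the calls were 2 lower among other sterol and isoprenoid steps, 2 higher among uptake, efflux and storage, and 1 lower and 2 higher among other fatty acid steps.

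Proliferation markers moved with the treatment. All 8 proliferation markers were called lower in the sensitive lines (median -2.67), and their summed level ranged from 9569 to 32122 CP20M with DMSO, from 2004 to 9369 with palbociclib and from 14262 to 23693 after washout. In the resistant pairs it was 29735 to 44990 with DMSO and 30663 to 45204 with the drug. The part of proliferation in the changes of the lipid genes was not tested. Of 10 mesothelial markers 1, CALB2, was called higher (1.69 ± 0.41 SE, adjusted p = 0.0041), and the summed level was 11231 to 96533 with DMSO and 14236 to 140699 with palbociclib, a difference whose part was not tested either. H28 had at most 15 CP20M of MSLN, 2 of CALB2, 4 of PDPN and 11 of THBD, so these mesothelial markers were at or near 0 in that line. The sum of the 10 was still at least 11231 CP20M in every sensitive DMSO library, H28 included. In H28 it therefore came from the other markers of the list. Of 8 leukocyte and endothelial markers 2 reached the filter, and over the sensitive lines 0 of these were called by limma or reached an unadjusted p under 0.05. In H28 alone PECAM1 was called higher, at 11, 7 and 6 CP20M with DMSO against 19, 22 and 19 with palbociclib. CD3E was at 0 in every library. The sum of the 8 was 163 to 1390 with DMSO and 273 to 1763 with palbociclib in the sensitive lines, and its part in the results was not tested. The read depth, estimated from the low whole numbers that a library skips, was 12780000 to 19600000 in 22 libraries. It could not be estimated in 11, which skipped none or too few of these numbers. A single read at the low end of that range equals 1.56 CP20M. The lowest value of the group, 34 CP20M of TM7SF2, came from H28 replicate 1 with palbociclib. That library skipped none of the low numbers and has no depth estimate.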

How the data were processed

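RNA was sequenced from 33 libraries of 6 established lines. Per the labels and the methods, the authors made directional libraries, trimmed reads with Trimmomatic 0.36, mapped them with STAR 2.5.3 to GRCh38 with Ensembl release 90, counted them with HTSeq 0.9.1, and called genes with DESeq2. The strand setting of the counting is not given in the sources used here. The deposited values are a normalized score, counts per 20000000 reads (CP20M) rounded up to whole numbers, so each column sums to about 20000000 and a count model was not used.

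The model was limma 3.58.1 in R 4.3.3, with a variance trend, on log2(CP20M + 10) of the 17803 genes with at least 100 CP20M in 1 library or more. Fold changes are on this scale, which understates those of low genes. Sensitive, resistant and single-line fits had the experiment as a block, as the methods pair treated and control cells. In the sensitive and resistant fits, pairs rather than lines were the units, and pairs of the same line were treated as independent. Deviations from group means of same-numbered libraries correlated, with r from 0.18 to 0.78 across genes. Washout fits had the experiment, 1 per line, as a block. A call needed more than 1.5-fold either way with FDR under 0.05, and differences between classes, among lines and of control levels used the FDR alone. All p-values were adjusted over all genes tested. Values of every library are given for up to 10 genes called over the sensitive lines, those called between classes, and the regulators, and up to 4 called genes of each other list are named. Calls of the fatty acid oxidation list beyond HADH and CPT1B are not reported here. The genes and lists were chosen with earlier results of these data known. Alternatives were other pseudocounts, filters and scalings, no trend, no block, line means, and leaving out pairs or lines, and the 9-day and 10-day pairs alone were added after seeing the data. The fits were tested on simulated data. Replicates had the same value at up to 4.33% of genes. Positions are from GENCODE 44 and promoters from RefSeq, both on GRCh38. Figures used matplotlib 3.10.9.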

Additional observations from a re-analysis of the deposited data

Results flagged for a closer look

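The response to palbociclib differed between sensitive and resistant lines for 5 of the 31 genes, by a test of the difference itself, which 7.81% of all genes tested passed in that direction. The log2 difference (sensitive minus resistant) was -1.15 for INSIG1, -1.13 for FADS1, -0.98 for FADS2, -0.89 for HSD17B7 and -0.74 for ACAT2, with limma adjusted p between 0.0018 and 0.028. All 5 were lower in 11 of 11 sensitive pairs.

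The response also differed among the 4 sensitive lines for 6 of the 31 genes, by limma's F test, which 37.1% of all genes tested passed. The adjusted p was 0.0011 for ELOVL6, 0.0065 for PMVK, 0.0077 for SCD, 0.0080 for EBP, 0.011 for ACLY and 0.044 for FDPS. ELOVL6 was at -1.21 and -1.01 in H2052 and H2452 and near 0 in H28 and MSTO-211H, while SCD had its most negative value, -1.98, in MSTO-211H.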

How the results depend on the processing

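Over the sensitive lines, 7 to 12 of the 31 genes were called lower under the alternatives run, except 14 without the MSTO-211H line, and 0 were called higher in each. INSIG1, FADS1, FADS2, ACAT2, HSD17B7 and TM7SF2 were called under all 26 alternatives, while EBP, FDFT1 and SCD each lost the call under at least 1. The median log2 fold change moved from -0.47 to -0.27 with median-of-ratios scaling, where the share of higher among all called genes went from 37.3% to 65.7% (920 lower and 1759 higher, against 1669 and 994), and to 62.9% with upper-quartile scaling (979 and 1661). Near 0, signs turned for PMVK (0.016 without the H2052 line), MSMO1 (0.0049 with median of ratios), INSIG2 (-0.041 without H2452, -0.13 in 10-day pairs) and NSDHL (between -0.032 and 0.046 with 1 pair left out, -0.012 without the H28 line, -0.073 without the MSTO-211H line, -0.0032 with line means, -0.087 in 9-day pairs). In single lines, the counts fell to 5 with median of ratios, 6 with the upper quartile (5 lower and 1 higher), 7 with a pseudocount of 1, and 0 with no filter or without trend in H2052, to 7 under both scalings and 0 to 4 with a pair left out in H2452, to 4 under both scalings, 3 with no filter and 0 with a pair left out in MSTO-211H, and to 0 with a pair left out in H28, where the filter within the fit gave 13. Without the replicate block, the count was 3 in H28, 2 for the difference between classes, 3 for differences among lines and 0 for washout against DMSO, where no other count moved beyond 1.5 times. The class difference counted 3 with the upper quartile and 1 to 6 with a pair left out, and median of ratios made 1 of its 5 calls a less negative effect. Washout against palbociclib called 2 genes lower with the upper quartile, and washout against DMSO called 4 without H2052 and 9 without MSTO-211H. The causes were not tested. Depth limits low genes such as TM7SF2 and HSD17B7 most.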

Other observations

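The untreated MeT-5A library belonged to no comparison. It was below the DMSO library of the same line for 28 of the 31 genes, with a median log2 difference of -0.40 and a range from -1.14 to 0.37. HMGCS1 was at 774 CP20M untreated, 1383 with DMSO and 1195 with palbociclib, and INSIG1 at 1232, 2240 and 1962. There is 1 library of each, so this difference has no replicate check, and it is larger than the median difference between palbociclib and DMSO in this line (-0.04). It was not computed over all genes, so whether it is particular to the 31 genes is not known.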
